A study of Mus musculus with 8 samples.

Results

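Mitochondrial respiration runs through 4 protein complexes of the inner membrane and through the ATP synthase, complex V. On these arrays of macrophages given LPS, with or without IL-10 and with or without miR-155, the nuclear genes for them that were bright enough to be kept gave no call on their brightest probe set, while *Cox7a1*, just under the limit of brightness, was called with IL-10 in cells without miR-155. The genes were chosen by name: every gene of the array whose symbol starts with *Nduf* (complex I), *Sdh* (complex II), *Uqcr* (complex III), *Cox4* to *Cox8* (complex IV) or *Atp5* (complex V), together with *Cyc1* and *Cycs*. Each gene was read on its brightest probe set that carries a single symbol, and a mean log2 signal of at least 6 over the 8 arrays was required. Of 96 such genes 87 passed and 9 did not, against 8485 of 18183 genes on the whole array. The 87 hold 40 genes of complex I, 8 of complex II, 9 of complex III, cytochrome c itself, 12 of complex IV and 17 of complex V, and by role 25 core subunits, 48 accessory subunits, 13 assembly factors and 1 tissue isoform. *Ndufa4* was placed with complex IV and the supercomplex factor *Cox7a2l* was counted as an assembly factor.

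The cells were bone marrow-derived macrophages (BMDM) of C57Bl/6 mice, 2 wild-type (WT) animals and 2 animals without miR-155 (*miR-155*-/-), a microRNA that LPS induces in macrophages. Thawed marrow was grown for 7 days with 15% L929-conditioned medium. Each culture then received LPS at 100 ng/ml for 24 h, alone or with IL-10 at 20 ng/ml added 5 min earlier, so that WT(LPS), WT(LPS + IL-10), *miR-155*-/-(LPS) and *miR-155*-/-(LPS + IL-10) have 2 arrays each. There is no unstimulated group, so every value is from LPS-treated cells and the effect of LPS itself cannot be read. The labels give the WT animals as female and the *miR-155*-/- animals as male and state no age. By these labels, differences between the genotypes and between the sexes cannot be told apart. The study's methods describe female littermates as the source of marrow, which does not match the labels, and the labels were followed here.

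Complex I takes electrons from NADH and complex II from succinate, both pass them to coenzyme Q, complex III hands them on to cytochrome c, and complex IV gives them to oxygen. Complexes I, III and IV pump protons, and complex V, the ATP synthase, uses the proton gradient to make ATP. Complex II is also succinate dehydrogenase of the TCA cycle, and it is the only complex with no subunit from the mitochondrial genome. Macrophages given LPS are known to lean on glycolysis while succinate builds up, and IL-10 is known to restrain that shift. Transcript levels say nothing about the amount or the activity of the assembled enzymes.

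The promoters were looked at first, since many of these genes are known targets of NRF-1, of ETS factors such as GABP, and of YY1. RefSeq windows of 300 bases (GRCm38.p6), 250 before and 50 after the start of transcription, were at hand for 73 of the 87 genes. The NRF-1 letters GCGCATGCG, searched on both strands as all motifs were, lay in the windows of 10 of the 73 genes (13.7%), against 4.69% of 7021 genes with a mean of at least 6 and 1.95% of all 27025 genes with a window. The GABP/ETS letters CCGGAAG lay in 22 of the 73 (30.1%, against 23.5% and 9.93%), and the YY1 letters AAGATGGCG in 7 (9.59%, against 4.34% and 1.64%). The Sp1 letters GGGCGG were in 37 (50.7%, against 71.1% and 38.2%), and TATAAA in 7 (9.59%, against 8.43% and 15.7%). In complex II the GABP/ETS letters lay in 5 of 7 windows, with no NRF-1 or YY1 match. A match is a run of letters and not a bound site, and NRF-1 letters overlap their own complement, so that a pair of matches 1 base apart can be one place.

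The stretches that follow were picked because they cover different matches among the genes described: cytochrome c with NRF-1, *Uqcr11* with NRF-1 and GABP/ETS, *Atp5k* with NRF-1 on both strands and with a GABP/ETS match that lies in its window just past the stretch shown, the membrane anchor *Sdhd* of complex II with GABP/ETS, and *Ndufb10*, the member that changed most with IL-10 in *miR-155*-/- cells, with none of the 5 motifs in its window. Each runs 5′ to 3′ along the minus strand of GRCm38.p6, from 120 bases before the start to 10 after it, and capitals mark NRF-1 or GABP/ETS letters.
Cycs, chr6:50566560-50566689: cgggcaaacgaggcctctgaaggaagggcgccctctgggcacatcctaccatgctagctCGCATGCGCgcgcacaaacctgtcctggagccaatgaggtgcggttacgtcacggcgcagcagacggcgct
Uqcr11, chr10:80406812-80406941: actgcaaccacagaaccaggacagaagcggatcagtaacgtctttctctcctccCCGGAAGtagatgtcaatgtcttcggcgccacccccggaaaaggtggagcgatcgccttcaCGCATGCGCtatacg
Atp5k, chr5:108434390-108434519: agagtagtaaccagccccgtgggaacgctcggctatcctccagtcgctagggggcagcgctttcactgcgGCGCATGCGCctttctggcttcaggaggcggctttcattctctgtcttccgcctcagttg
Sdhd, chr9:50603840-50603969: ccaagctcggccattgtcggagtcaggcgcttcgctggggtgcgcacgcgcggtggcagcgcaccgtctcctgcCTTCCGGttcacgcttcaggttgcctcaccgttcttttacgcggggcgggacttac
Ndufb10, chr17:24724414-24724543: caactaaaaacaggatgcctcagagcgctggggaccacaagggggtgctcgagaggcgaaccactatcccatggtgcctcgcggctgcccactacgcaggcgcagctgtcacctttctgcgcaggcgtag

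The authors deposited RMA values, log2 signals scaled so that all arrays have about the same distribution, and a difference of 1 is a doubling of signal. Signals of different probe sets were not set against each other, since probes differ in brightness. All comparisons come from limma, fitted with a random block for the animal, and a gene is called at a Benjamini-Hochberg adjusted p under 0.05 over 45014 probe sets. By their median, macrophage markers were bright on all arrays (12.5 to 12.7 over 10 genes, such as *Adgre1*, which encodes F4/80). Of these markers 2 were called, *Cd163* and *Mrc1*. Under LPS alone, loss of miR-155 went with log2 fold changes of −1.66 (limma adjusted p = 0.0491) and −2.71 (0.0101). With IL-10 in *miR-155*-/- cells they rose by 1.69 (limma adjusted p = 0.022) and 2.68 (0.0044). *Cd163* was dim on the *miR-155*-/-(LPS) arrays, at 5.7 and 6.3. Stromal markers stood at a median of 9.52 and 9.63 over 12 genes on both arrays of WT donor 1, led by collagens such as *Col1a1*, and between 3.51 and 4.91 on the other 6 arrays. The part of stromal RNA in the members' values was not tested. Of these 12 genes 2 were under 6 on each array of WT donor 1 and 8 to 12 on each other array. The 1 called, *Lum*, went the other way. It read 2.63 and 2.77 in WT(LPS) and 4.91 and 5.63 in *miR-155*-/-(LPS) (log2 fold change 2.57, limma adjusted p = 0.0125). *Col1a1* read 8.00 and 7.90 on the arrays of *miR-155*-/- donor 2, against 6.30 and 7.18 on those of WT donor 2. The array does not read mature miR-155, and its host transcript *Mir155hg* was too dim to check the genotypes firmly, at 2.73 and 4.02 in WT(LPS) and 2.14 and 2.19 under LPS alone without miR-155 (log2 fold change −1.21, limma adjusted p = 0.246). Without both arrays of WT donor 1 each WT group keeps 1 array. For comparisons that use WT arrays, that fit is therefore read for effect sizes only.

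Most members differed little between the 8 arrays. The gap between a gene's highest and lowest array had a median of 0.41 over the 87 members, and 61 of them (70.1%) stayed within 0.5, against a median of 0.55 and 44.2% for all genes with a mean of at least 6. Brightness bears on this, since among genes with a mean of at least 11 the median was 0.30 for 41 members and 0.37 for all 1207. The narrowest gaps were those of *Ndufb5* at 0.10 and of *Atp5a1*, the alpha subunit of the ATP synthase, at 0.12, with 12.12 and 12.20 without and 12.09 and 12.15 with IL-10 in WT cells, and 12.21 and 12.16 without and 12.12 and 12.11 with IL-10 in *miR-155*-/- cells. Only *Cox6a2* (1.33) and *Ndufa4* (1.09) ranged over more than 1.

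**Figure D1:**
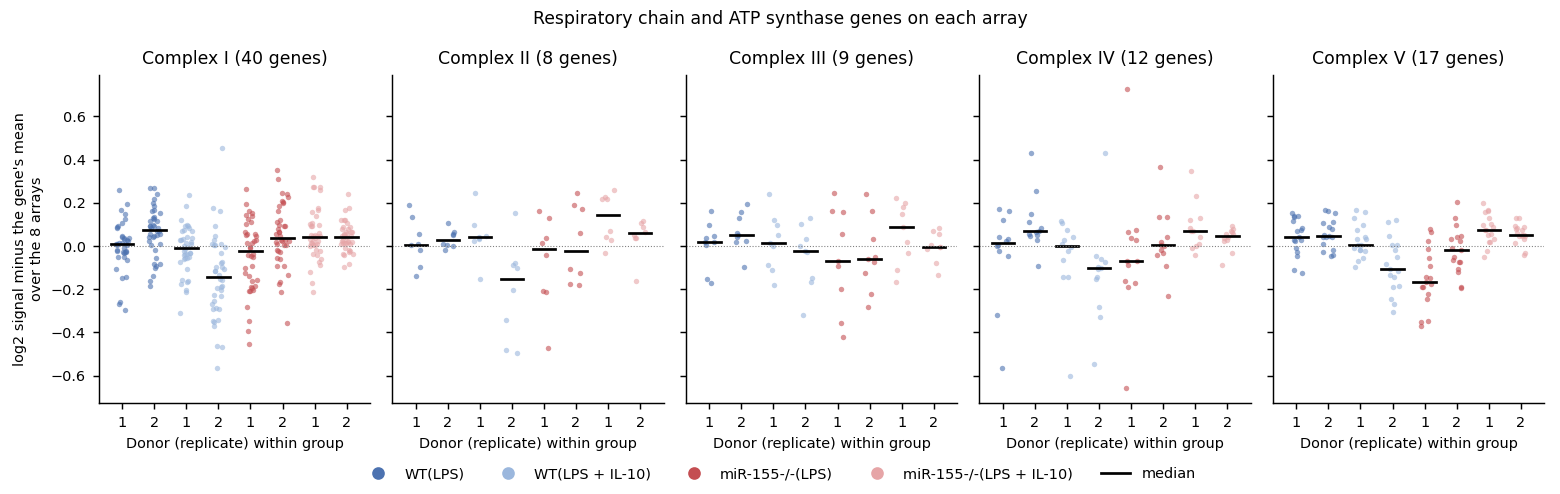
Each point is 1 gene on 1 array, as its log2 signal minus the gene's own mean over the 8 arrays (y axis), by complex (panels) and by group and donor (x axis), with the median of the complex in black. The medians lie within 0.17 of 0 everywhere, the lowest being the array of WT(LPS + IL-10) donor 2 for complexes I, II and IV and that of *miR-155*-/-(LPS) donor 1 for complexes III and V.

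The low values gathered on a pair of arrays. The array of WT(LPS + IL-10) donor 2 was the lowest of the 8 for 37 of the 87 members, and that of *miR-155*-/-(LPS) donor 1 for 30. High values were less concentrated, with 24 members highest in WT(LPS) donor 2 and 23 in *miR-155*-/-(LPS + IL-10) donor 1. On the array of *miR-155*-/-(LPS) donor 1, the *Gapdh* control probes had the largest 3′ minus 5′ difference of the 8, at 0.71 against 0.48 to 0.57 elsewhere, a sign of RNA length, and the array of WT(LPS + IL-10) donor 2 had the smallest, at 0.48. For the actin probes these arrays lay in the middle, at 0.83 and 0.82 within 0.69 to 1.04. The part of RNA quality in the members' values was not tested.

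With IL-10, most members read slightly lower in WT cells, and no member was called. Of the 87 members 74 were below 0 in WT(LPS + IL-10) against WT(LPS), where 50.0% of all probe sets were, and the median log2 fold change was −0.11, against −0.03 for all genes with a mean of at least 6. Among genes with a mean of at least 11, 54.6% were below 0. None of the 87 passed an adjusted p of 0.05 from limma (0.0311% of all probe sets did), and 1 had an unadjusted p under 0.05 (9.27% of all probe sets did). That gene was *Ndufaf6*, a complex I assembly factor, with 6.33 and 6.46 in WT(LPS) and 6.03 and 5.88 in WT(LPS + IL-10). Its groups did not overlap, and it was lower by 0.44 on the log2 scale (fold change −0.44, SE 0.12, limma adjusted p = 0.333). *Ndufaf6* is also the dimmest member, just inside the minimum with a mean of 6.25.

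In complex II, *Sdhb*, the iron-sulfur subunit, read 10.59 and 10.61 in WT(LPS) and 10.45 and 10.11 in WT(LPS + IL-10), a log2 fold change of −0.32 (limma adjusted p = 0.55). The change was −0.13 in donor 1 and −0.50 in donor 2, so its size rests on the second donor. The other members with the largest changes were *Cox6a2* (−0.42) and *Ndufb3*, an accessory subunit of complex I (−0.30), and both fell short of an unadjusted p of 0.05. In donors 1 and 2 the changes were −0.03 and −0.80 for *Cox6a2* and −0.03 and −0.58 for *Ndufb3*, so both rest on the second donor. The catalytic subunit *Sdha* was at −0.06 and the anchors *Sdhc* and *Sdhd* at −0.27 and 0.12, so the estimates for the 4 subunits of complex II did not share a sign. No member of complex II had an unadjusted p under 0.05 here with all arrays fitted. By complex, the medians were −0.12 in complex I, −0.10 in II, −0.08 in III, −0.11 in IV and −0.07 in V. Leaving out the array of WT(LPS + IL-10) donor 2 took the median of all members from −0.11 to −0.04, and leaving out both arrays of WT donor 1 took it to −0.21. That last fit leaves 1 array in each WT group, both of donor 2, so it is read for effect sizes only.

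The precision allows limits on what was missed. In WT cells the 95% interval of the IL-10 effect lay within a 2-fold change, 1 on the log2 scale, for 87 of 87 members and within a 1.5-fold change for 76. For the effect of IL-10 in *miR-155*-/- cells these counts were 87 and 68, and for the difference between the effects 82 and 35. Among all genes with a mean of at least 6, 71.8% lay within 1.5-fold in WT cells, 58.1% in *miR-155*-/- cells and 35.6% for the difference.

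Between the genotypes under LPS alone, the gap was largest for a handful of subunits, again with no member called. Under LPS alone, 56 of the 87 were below 0 in *miR-155*-/- relative to WT cells (46.8% of all probe sets), with a median of −0.07. Among genes with a mean of at least 11, 58.2% were below 0, with a median of −0.04. No member passed an adjusted p of 0.05 (1.46% of all probe sets did), and 4 had an unadjusted p under 0.05 (13.8% of all probe sets), 3 lower and 1 higher. The 3 lower ones were *Ndufa4*, *Ndufb10* and *Uqcr11*. The higher one was *Cox6a2*, the heart and skeletal muscle form of a complex IV subunit, whose common form *Cox6a1* was at −0.09.

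*Ndufa4*, first described in complex I and now known as a subunit of complex IV, read 10.57 and 10.45 without and 10.51 and 10.83 with IL-10 in WT cells, and 9.74 and 10.17 without and 10.47 and 10.45 with IL-10 in *miR-155*-/- cells. The arrays of *miR-155*-/-(LPS) were the lowest of the 8, and those of that genotype with IL-10 lay among the WT arrays. The log2 fold change against WT(LPS) was −0.56 (SE 0.19, limma adjusted p = 0.265), and it was −0.34 without the array of *miR-155*-/-(LPS) donor 1. *Ndufb10*, an accessory subunit of the membrane arm of complex I, read 11.12 and 10.78 without and 11.09 and 10.86 with IL-10 in WT cells, and 10.41 and 10.50 without and 11.13 and 10.98 with IL-10 in *miR-155*-/- cells. It had the same order, with the arrays of *miR-155*-/-(LPS) below all others and a log2 fold change of −0.49 (SE 0.16, limma adjusted p = 0.238). *Uqcr11*, a small subunit of complex III, read 9.62 and 9.61 without and 9.70 and 9.31 with IL-10 in WT cells, and 9.04 and 9.24 without and 9.61 and 9.54 with IL-10 in *miR-155*-/- cells. Its change was −0.48 (SE 0.17, limma adjusted p = 0.267), and the nearest array of another group, WT(LPS + IL-10) donor 2, lay 9.31 against 9.24.

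*Cox6a2* read 5.74 and 6.56 without and 5.71 and 5.76 with IL-10 in WT cells, and 7.03 and 6.67 without and 6.66 and 6.33 with IL-10 in *miR-155*-/- cells. It is a dim probe set, with a mean of 6.31, that passed the minimum through the *miR-155*-/- arrays and 1 WT array, and its change of 0.70 (limma adjusted p = 0.327) was 0.29 without WT donor 1. Without that donor, which leaves 1 array in WT(LPS), the changes were −0.50 for *Ndufa4*, −0.32 for *Ndufb10* and −0.55 for *Cox7c*, a complex IV subunit. By complex, the medians were −0.01 in complex I, −0.06 in II, −0.12 in III, −0.07 in IV and −0.17 in V. In complex V, 13 of 17 members were below 0, and the largest difference was that of *Atp5g2*, one of 3 genes for the membrane ring subunit c, at −0.33. Leaving out the array of *miR-155*-/-(LPS) donor 1 took the median of complex V to −0.09, and leaving out that of donor 2 took it to −0.25.

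In *miR-155*-/- cells given IL-10, most members read higher. Set against the same cells without it, 27 of the 87 were below 0 (49.1% of all probe sets) and 60 above, with a median of 0.08. Among genes with a mean of at least 11, 40.2% were below 0, with a median of 0.04. No member passed an adjusted p of 0.05 from limma (2.68% of all probe sets did), and 11 had an unadjusted p under 0.05, 9 higher and 2 lower, where 17.3% of all probe sets had one. This comparison shares the *miR-155*-/-(LPS) arrays with the one before it, so a member low on those arrays reads lower in the first and higher in this one. The 9 higher members were *Ndufb10* and *Ndufv3* of complex I, *Sdhc* and the assembly factor *Sdhaf4* of complex II, *Uqcr11* of complex III, *Ndufa4* of complex IV, and the stalk or membrane subunits *Atp5j*, *Atp5k* and *Atp5pb* of complex V.

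*Ndufb10* had the largest change of all members with IL-10 in these cells, 0.60 on the log2 scale (SE 0.14, limma adjusted p = 0.0842), with 0.73 in donor 1 and 0.48 in donor 2. Both *miR-155*-/-(LPS + IL-10) arrays lay above both *miR-155*-/-(LPS) arrays, and the 95% interval ran from 0.27 to 0.94. *Ndufa4* was higher by 0.51 (limma adjusted p = 0.187), or by 0.29 without the array of *miR-155*-/-(LPS) donor 1, and *Uqcr11* by 0.44 (limma adjusted p = 0.19). *Sdhaf4*, which helps to mature the flavoprotein of complex II, read 8.41 and 8.70 without and 9.11 and 8.99 with IL-10 in *miR-155*-/- cells, a change of 0.49 (limma adjusted p = 0.156). In WT cells the same 4 genes were at 0.03, 0.16, −0.11 and 0.01 with IL-10.

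The 2 lower members belong to complexes I and III. *Ndufv1*, which binds NADH in complex I, read 10.98 and 11.03 without and 10.51 and 10.68 with IL-10 in *miR-155*-/- cells, a log2 fold change of −0.41 (limma adjusted p = 0.254). *Uqcrc2*, a large subunit of complex III, read 12.16 and 12.15 without and 11.74 and 11.83 with IL-10 in *miR-155*-/- cells, a change of −0.37 (limma adjusted p = 0.197). On these probe sets both were lower in either donor and their groups did not overlap. On other probe sets the changes were −0.48 and −0.07 for *Ndufv1* and −0.12 for *Uqcrc2*. Of the other subunits that carry electrons, *Ndufs7* (−0.36) and *Cyc1*, cytochrome c1 (−0.29), were below 0. *Ndufs1* (0.22), *Ndufs8* (0.08) and *Uqcrfs1* (0.14) were above. On their brightest probe sets none of these had an unadjusted p under 0.05. Further probe sets of *Ndufs8* were at 0.48, 0.54, 0.40 and 0.39, each with an unadjusted p under 0.05 but not called, and at 0.12. The other probe set of *Ndufs7* was at −0.05. Read on the brightest probe sets, the members of a complex therefore did not share one direction. By complex, the medians were 0.07 in complex I, 0.08 in II, 0.14 in III, 0.07 in IV and 0.20 in V.

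Calls in this comparison differed with the probe sets fitted. With the fit and the adjustment over the 15434 probe sets with a mean of at least 6, 5 members passed an adjusted p of 0.05 from limma in this comparison: *Ndufb10*, *Ndufa4*, *Sdhaf4* and *Uqcr11* were higher and *Uqcrc2* was lower. Of all those probe sets 20.6% passed there. Leaving out the array of *miR-155*-/-(LPS) donor 1 took the median of all members from 0.08 to 0.03 and that of complex V from 0.20 to 0.10. Leaving out WT donor 1 keeps the fold changes of this comparison, but it changes the estimated spread and drops the random block. The unadjusted p-values of members can therefore differ there. With 1 array at a time left out, the change ranged from 0.15 to 0.47 for *Atp5k* and from 0.16 to 0.40 for *Ndufv3*.

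**Figure D2:**
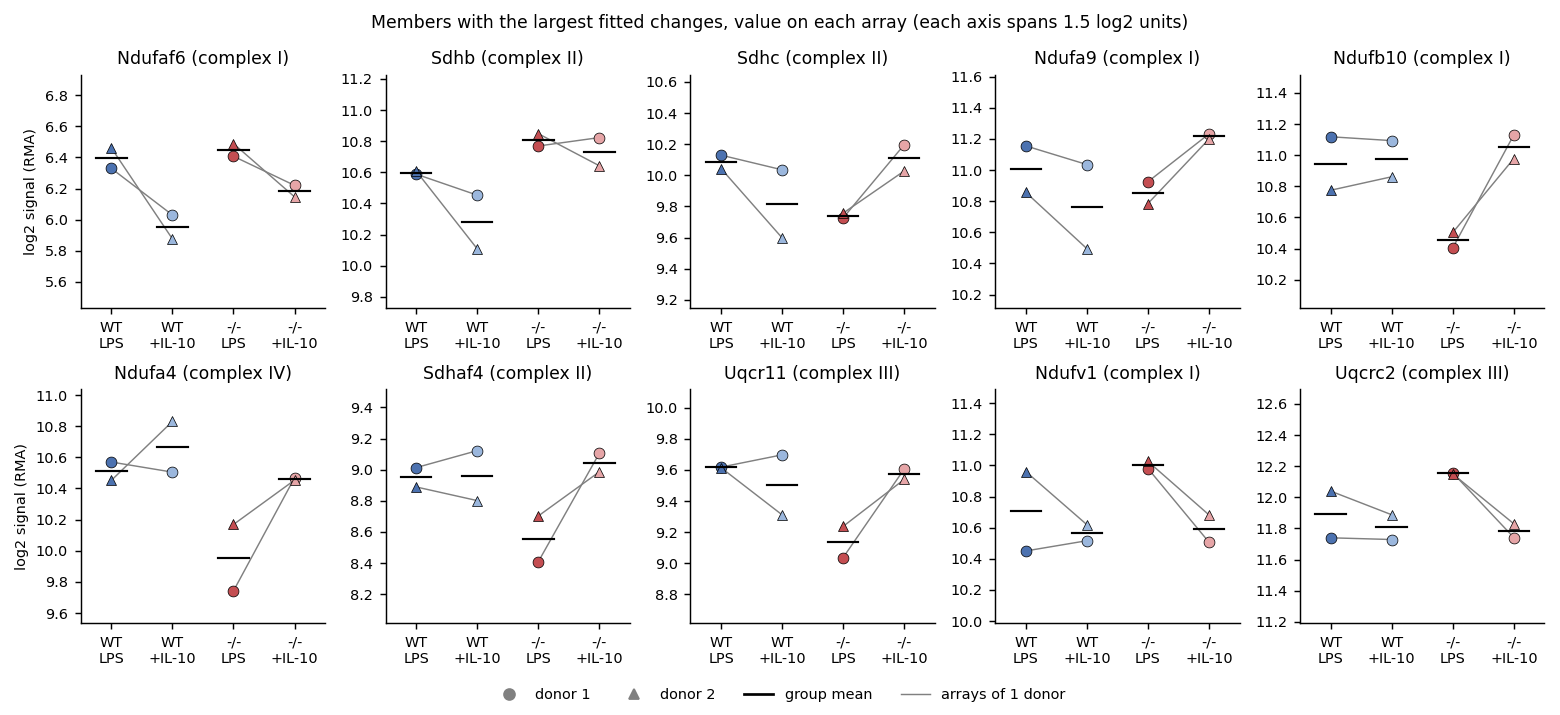
Log2 signal (y axis, 1.5 log2 units on each panel) of 10 members on each of the 8 arrays, by group (x axis), with circles for donor 1, triangles for donor 2, grey lines joining the arrays of 1 donor and black bars for group means. *Ndufb10*, *Ndufa4*, *Sdhaf4* and *Uqcr11* are lowest in *miR-155*-/-(LPS), where *Ndufv1* and *Uqcrc2* are highest.

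With IL-10 present, most members read slightly higher in *miR-155*-/- than in WT cells. The median of complex III lay close to 0 and changed sign between alternative fits. In *miR-155*-/-(LPS + IL-10) against WT(LPS + IL-10), 16 of the 87 were below 0 (45.6% of all probe sets), the median was 0.11, no member passed an adjusted p of 0.05 (0.0711% of all probe sets did), and 5 had an unadjusted p under 0.05, all higher, where 8.94% of all probe sets had one. They were *Cox6a2* (0.76), *Sdhb* (0.45), *Ndufs8* of the redox core of complex I (0.37) and the complex I assembly factors *Ndufaf3* (0.49) and *Ndufaf5* (0.35), with limma adjusted p-values from 0.452 to 0.529. *Cox6a2* passed the minimum mean of 6 through the *miR-155*-/- arrays and 1 WT array, and its WT(LPS + IL-10) arrays read 5.71 and 5.76. *Ndufa9*, with a difference as large as that of *Sdhb* (0.45), fell short of an unadjusted p under 0.05 (limma adjusted p = 0.567). *Sdhb* read 10.45 and 10.11 in WT cells with IL-10, against 10.82 and 10.64 without miR-155, so that the groups did not overlap. *Ndufaf3* read 8.45 and 7.92 against 8.76 and 8.59. Without the low WT array of donor 2 the difference was 0.28 for *Sdhb* and 0.26 for *Ndufaf3*, and the median of all members was 0.03. By complex, the medians were 0.11 in complex I, 0.13 in II, −0.02 in III, with 5 of 9 members below 0, 0.12 in IV and 0.10 in V. Without WT donor 1, which leaves 1 array in WT(LPS + IL-10), the difference was 0.72 for *Ndufa9* and 0.51 for *Sdhc*.

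The effect of IL-10 was more positive in *miR-155*-/- than in WT cells for 76 of the 87 members, and for none past an adjusted p of 0.05 (0.0333% of all probe sets passed). The difference of the effects had a median of 0.17 over the members and 0.02 over all genes with a mean of at least 6, and 11 members were below 0 (50.1% of all probe sets). Among genes with a mean of at least 11 the median was 0.06, and 38.3% were below 0. An unadjusted p under 0.05 was found for 5 members, all above 0, where 10.4% of all probe sets had one: *Sdhc* (0.64), *Ndufa9* (0.60), *Ndufb10* (0.57), *Uqcr11* (0.55) and *Atp5g1* (0.49), with limma adjusted p-values from 0.413 to 0.463. *Sdhc*, a heme-bearing anchor of complex II, read 10.13 and 10.04 without and 10.04 and 9.60 with IL-10 in WT cells, and 9.73 and 9.76 without and 10.20 and 10.03 with IL-10 in *miR-155*-/- cells. *Ndufa9*, which joins the arms of complex I, read 11.15 and 10.86 without and 11.04 and 10.49 with IL-10 in WT cells, and 10.92 and 10.78 without and 11.23 and 11.20 with IL-10 in *miR-155*-/- cells. Both were lower with IL-10 in each WT donor and higher in each *miR-155*-/- donor. Leaving out WT donor 1 leaves 1 array in each WT group. The difference was then 0.51 for *Ndufb10*, 0.77 for *Cox7c*, 0.65 for *Ndufb3* and 0.60 for *Cox8a* and *Atp5h*. By complex, the medians of the difference were 0.14 in complex I, 0.25 in II, 0.14 in III, 0.15 in IV and 0.26 in V.

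**Figure D3:**
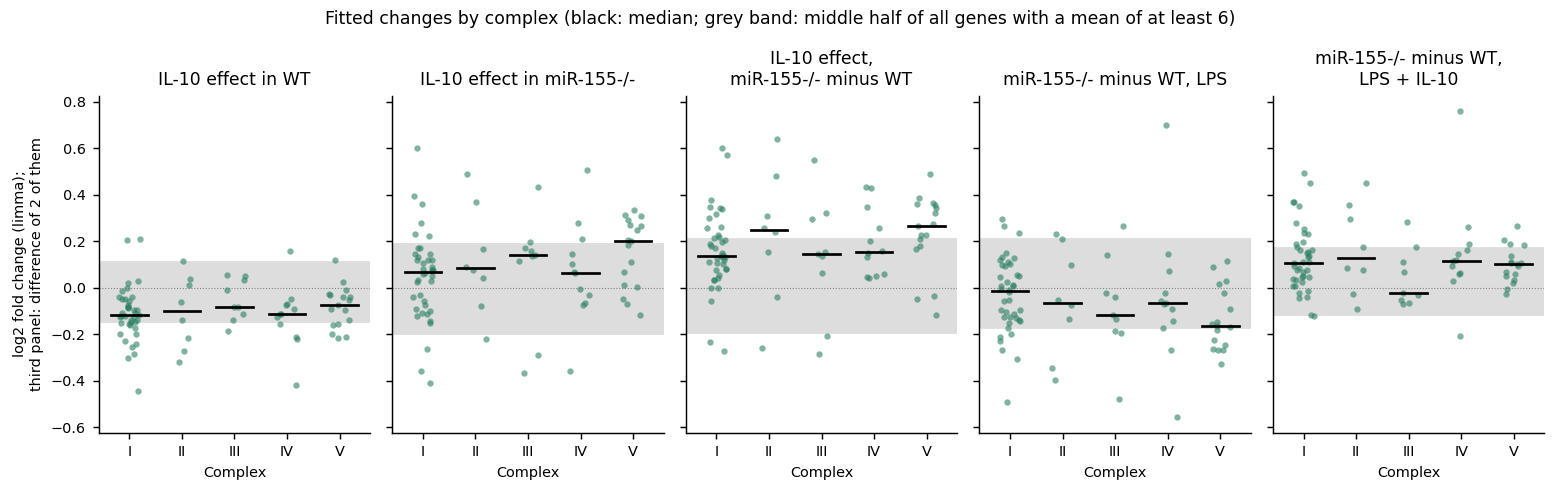
Each point is a member, placed by complex (x axis) and by its fitted log2 fold change (y axis), or in the third panel by the difference between the IL-10 effects, with the median of the complex in black and the interquartile band of all genes with a mean of at least 6 in grey. The medians lie below 0 with IL-10 in WT cells and above 0 with IL-10 in *miR-155*-/- cells, and most stay inside the grey band.

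Donor by donor, the pattern was uneven. The median change of the 87 members with IL-10 was −0.02 in WT donor 1, −0.21 in WT donor 2, 0.13 in *miR-155*-/- donor 1 and 0.04 in *miR-155*-/- donor 2. Members below 0 numbered 52, 75, 24 and 39. The opposite pattern, higher in both WT donors and lower in both *miR-155*-/- donors, was found for 0 members and for 576 of 8485 genes with a mean of at least 6. In all, 23 of the 87 (26.4%) were lower in both WT donors and higher in both *miR-155*-/- donors, against 9.65% of all genes with a mean of at least 6. They include *Sdhc*, *Ndufa9*, *Ndufs3*, *Uqcrfs1*, the Rieske iron-sulfur protein of complex III, *Cox4i1*, and *Atp5b*, the catalytic beta subunit, together with all 3 genes of subunit c, *Atp5g1*, *Atp5g2* and *Atp5g3*. These counts take the sign alone, and some of the WT changes were close to 0. *Atp5g3* was at −0.03 in both WT donors, and *Uqcrfs1* at −0.02 in WT donor 1. By complex they were 8 of 40 in I, 2 of 8 in II, 3 of 9 in III, 4 of 12 in IV and 6 of 17 in V. Both WT donors were measured against *miR-155*-/- donors of the other labelled sex, and no member was called for this difference.

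**Figure D4:**
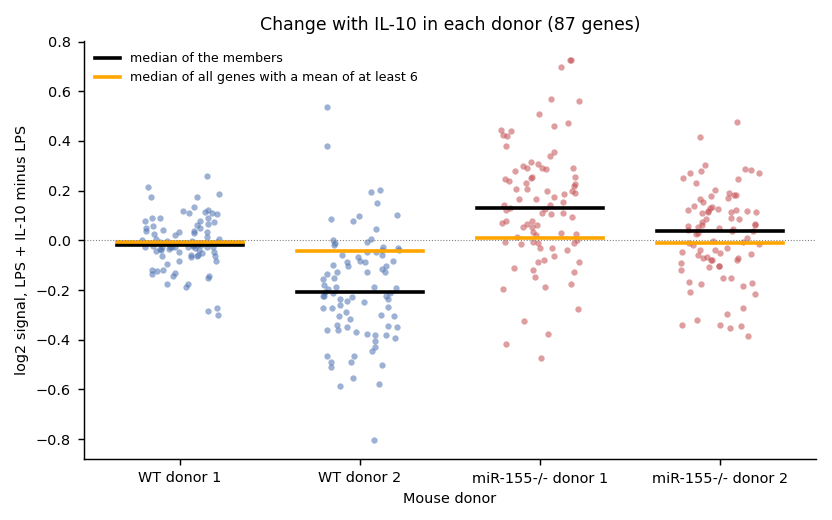
Each point is a member, as the log2 signal with LPS + IL-10 minus that with LPS alone in 1 donor (y axis), by donor (x axis), with the median of the 87 members in black and that of all genes with a mean of at least 6 in orange. The members' median is −0.02 against −0.01 in WT donor 1, −0.21 against −0.04 in WT donor 2, 0.13 against 0.01 in *miR-155*-/- donor 1 and 0.04 against −0.01 in donor 2.

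Among core subunits, steady and variable ones stood side by side. In complex I the gap between the highest and lowest of the 8 arrays was 0.18 for *Ndufs3* and 0.26 for *Ndufs1*, against 0.46 for *Ndufs8*, 0.58 for *Ndufv1* and 0.65 for *Ndufs7*. *Ndufs7*, which carries the last iron-sulfur cluster before coenzyme Q, read 11.60 and 12.16 in WT(LPS), so the WT donors alone nearly spanned its range. In complex II the gaps were 0.19 for *Sdha*, 0.26 for *Sdhd*, 0.60 for *Sdhc* and 0.74 for *Sdhb*. *Sdha*, which oxidises succinate, stood at 11.23 and 11.27 without and 11.25 and 11.14 with IL-10 in WT cells, and 11.26 and 11.10 without and 11.25 and 11.29 with IL-10 in *miR-155*-/- cells. Its groups overlapped with and without IL-10 in either genotype, while with IL-10 the *miR-155*-/- arrays lay just above the WT arrays. In complex III they were 0.35 for *Cyc1* and 0.52 for *Uqcrfs1*, with 0.50 and 0.43 for *Uqcrc1* and *Uqcrc2*, which were counted as accessory since they carry no electrons, and cytochrome c (*Cycs*) ranged over 0.43. *Cycs* was at −0.26 with IL-10 in WT cells and at −0.17 in *miR-155*-/- cells.

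In complex IV, *Cox4i1*, *Cox5a* and *Cox5b* ranged over 0.25, 0.28 and 0.28, and in complex V *Atp5b*, *Atp5c1* and *Atp5o* over 0.26, 0.27 and 0.22. The ubiquitous forms *Cox6a1*, *Cox7a2* and *Cox8a* were bright, with means of 12.7, 13.0 and 10.2. The tissue forms *Cox4i2*, *Cox6b2*, *Cox8b* and *Ndufa4l2* had means of 4.21, 4.24, 3.71 and 3.04 and were left out with *Cox7b2*, *Cox8c*, *Ndufb1* and *Ndufb4*. *Cox7a1*, the heart and muscle form of subunit VIIa, lay just outside the minimum with a mean of 5.98. It read 6.01 and 5.84 without and 6.77 and 6.38 with IL-10 in WT cells, and 4.79 and 5.40 without and 6.21 and 6.39 with IL-10 in *miR-155*-/- cells, so that it was lowest without IL-10 in *miR-155*-/- cells and higher with IL-10 in every donor. Its log2 fold change with IL-10 was 1.199 in *miR-155*-/- cells (limma adjusted p = 0.0301, and 0.0788 without WT donor 1) and 0.65 in WT cells (limma adjusted p = 0.411). The subunit genes on the X chromosome, *Ndufa1* and *Ndufb11*, differed between *miR-155*-/-(LPS) and WT(LPS) by 0.01 and −0.14. *Cox7b* was not analysed here.

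Other probe sets bear on how far a single one can be trusted. Of the 87 members 53 had more than 1 probe set, and 93 further probe sets of members were tested. None moved against the brightest one with both over 0.3 in size, in any of the 5 comparisons. Most members changed by less than 0.3 on the brightest probe set, so few could have met this limit. Smaller disagreements did occur. With IL-10 in *miR-155*-/- cells *Atp5d* was at −0.12 on the brightest probe set and at 0.29 on another. *Ndufb9* was at −0.11 and, on a probe set with a mean of 9.67, at 0.28. *Atp5k*, at 0.31, was at 0.30 and 0.35 on its others. One further probe set was called, for *Ndufb8* in *miR-155*-/-(LPS) against WT(LPS), at 0.81 with a mean of 6.71 (limma adjusted p = 0.0368), while the brightest probe set of that gene was at −0.13. The probe sets of 49 members carry a suffix for probes that match more than 1 transcript. It is _a_at, for transcripts of 1 gene, in 28, and _s_at or _x_at, for transcripts that can belong to related genes or pseudogenes, in 12 and 9, where the signals cannot be told apart.

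Genes that assemble, feed or regulate the chain were not called either. Outside the members, none of 7 complex I, 5 complex III and 16 complex IV assembly factors, 4 genes of ATP synthase assembly and inhibition, 10 of coenzyme Q synthesis, 6 other electron donors to coenzyme Q, 11 regulators of mitochondrial biogenesis and 8 carriers and outer membrane proteins was called in any of the 5 comparisons. Among the regulators, *Gabpa*, the DNA-binding subunit of GABP, was at −0.44 between the genotypes under LPS alone and at 0.44 with IL-10 in *miR-155*-/- cells, and *Esrra*, a nuclear receptor that drives these genes, was at 0.56 and −0.51. *Nrf1*, which with a mean of 5.92 was not among the 11, *Tfam* and *Yy1* were at 0.37, 0.35 and 0.09 in the first of these and at −0.36, −0.37 and −0.15 in the second. The only gene of the mitochondrial genome read here, *ND5* of complex I, stood between 11.03 and 11.52 on all arrays and was at 0.14 with IL-10 in WT and 0.26 in *miR-155*-/- cells.

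Ribosomal genes had medians of much the same size. The 76 genes of the mitochondrial ribosome had medians of −0.10 with IL-10 in WT cells, −0.07 between genotypes under LPS alone, 0.09 with IL-10 in *miR-155*-/- cells, 0.13 between genotypes with IL-10 and 0.18 for the difference of the effects. The members had −0.11, −0.07, 0.08, 0.11 and 0.17. For 23 genes of the cytosolic ribosome these medians were −0.05, −0.14, 0.11, 0.05 and 0.20. Proliferation markers moved more, with a median of 1.61 with IL-10 in *miR-155*-/- cells over 5 genes, 3 of them called, and −0.03 in WT cells. Their part in the members' values was not tested.

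Of 4 genes whose products act on respiration, *Hif1a* among them, *Arg2* was the one called. *Arg2*, a mitochondrial arginase, rose in *miR-155*-/-(LPS) against WT(LPS) by 1.49 (limma adjusted p = 0.048) and with IL-10 in *miR-155*-/- cells by 1.44 (limma adjusted p = 0.0258), and was at 2.26 with IL-10 in WT cells (limma adjusted p = 0.0564). *Acod1*, which makes the succinate dehydrogenase inhibitor itaconate, was bright on all arrays (12.6 to 13.1) and at 0.03 and −0.08 with IL-10 in WT and *miR-155*-/- cells. *Nos2*, whose product nitric oxide blocks complex IV, was dim on all arrays (2.30 to 3.67).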

How the data were processed

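RNA of 8 BMDM cultures (4 animals, each with LPS and with LPS + IL-10) was amplified with a NuGEN kit and hybridised to Affymetrix mouse whole-genome arrays. The authors processed the arrays with RMA (affy) and deposited log2 signals per probe set. Their versions are not stated in the sources at hand. RMA makes the arrays share one distribution, so a shift of all genes cannot be seen. Probe set symbols came from the platform annotation. Without control and sex-linked marker probe sets, 45014 probe sets were fitted with limma 3.58.1 (R 4.3.3): group means, the mouse donor as a random block (duplicateCorrelation, consensus correlation 0.24), eBayes and Benjamini-Hochberg adjustment, called under 0.05. Same-numbered arrays of a genotype come from 1 animal. Tables and plots were made with Python 3.11.15, pandas 2.3.3 and matplotlib 3.10.9. The fit was tested on simulated data.

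The members and lists were chosen with earlier results of these data known. Genes named in each of the 5 comparisons were the 4 members with the largest changes and those with an unadjusted p under 0.05. The core subunits, isoforms, X-linked genes and regulators were named for their role. Genes named for their change without WT donor 1 were named after their values were seen. Alternatives covered the block, the arrays and probe sets fitted, array weights, variance model, normalization, the probe set of a gene and the minimum mean. No array column was left unused. The number of arrays, 2 per group, limits the precision.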

Additional observations from a re-analysis of the deposited data

Results flagged for a closer look

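The median change with IL-10 was below 0 in both WT donors and above 0 in both *miR-155*-/- donors for the 87 members as a whole and for complexes III, IV and V, and the difference between the genotypes was not tested for these medians. The difference of the fitted effects had a median of 0.170 over all members, 0.143 in complex III, 0.155 in complex IV and 0.264 in complex V. In complex III the donors' medians were −0.001 and −0.152 in WT cells and 0.142 and 0.120 in *miR-155*-/- cells. In complex IV they were −0.030 and −0.199 against 0.078 and 0.043, and in complex V −0.022 and −0.087 against 0.241 and 0.110. The first WT donor, whose arrays carry the stromal markers, lay close to 0 in each. Complex I had −0.008 and −0.218 against 0.126 and −0.007, and complex II 0.026 and −0.204 against 0.127 and 0.098, so that neither had opposite signs in every donor.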

How the results depend on the processing

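Members called with IL-10 in *miR-155*-/- cells numbered 0 with all probe sets, where 1206 of 45014 probe sets were called. With dimmer probe sets (mean under 6) left out there were 5, beside 3183 of 15434 probe sets. An intensity trend and robust variances gave 2 (*Ndufb10*, limma adjusted p = 0.0131, and *Uqcrc2*, 0.0449), beside 2422 of 45014. Array weights gave 1 (*Ndufb10*, 0.0401), beside 2410 of 45014. With the probe sets of each gene averaged there was 1 (*Ndufb10*, 0.0419), beside 1039 of 18183 genes. With no minimum mean there was 1 (*Cox7a1*, 0.0301), beside the same 1206 probe sets. In *miR-155*-/-(LPS) against WT(LPS), 1 gene (*Ndufb8*) was called without probe sets ending in _x_at, _s_at or _a_at. No other alternative run called a member. Without the donor as a replicate block, and with it as a fixed block for the comparisons within donors, 0 members were called and no call changed. Over all probe sets the block mattered more, with 492 calls without it against 1206 for IL-10 in *miR-155*-/- cells, 0 against 14 in WT cells and 1 against 15 for the difference of the effects. With a fixed block these were 1572, 66 and 9. With dimmer probe sets left out, 327, 1523, 3183, 215 and 87 were called in the 5 comparisons, against 14, 659, 1206, 32 and 15, and with trend and robust variances 244, 1570, 2422, 295 and 105. With only the arrays compared, 0, 77, 752 and 2 were called in the first 4. Without WT donor 1 each WT group keeps 1 array, so the calls of that fit are not counted here. In these fits the donor correlation could not be estimated within one genotype or with that donor removed, so no block was used. The difference of the effects was not run on the arrays compared alone. Array weights gave 4 in WT cells, 2410 with IL-10 in *miR-155*-/- cells and 8 for the difference. For IL-10 in WT cells, centred arrays gave 49, gene means 60 and a second quantile normalization 8.

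Without both arrays of WT donor 1, the medians for IL-10 in WT cells were −0.209 (members), −0.218 (I), −0.204 (II), −0.152 (III) and −0.199 (IV), that of complex I between genotypes under LPS −0.0767, those between genotypes with IL-10 0.171 (members), 0.196 (I), 0.272 (II) and 0.174 (V), and those of the difference of the effects 0.273 (members), 0.270 (I), 0.432 (II), 0.225 (IV) and 0.350 (V). Complex III moved to −0.0736 under LPS and 0.0159 with IL-10 between genotypes when arrays were centred, and with gene means to −0.0234, 0.0281 and, for the difference, 0.0950, where complex IV had 0.206. Without the suffixed probe sets, complex II had −0.00658 for IL-10 in WT cells, and complexes III and IV 0.0599 and 0.189 between genotypes with IL-10. A minimum mean of 8 gave −0.0254 for complex II in WT cells, and subunits only −0.0759 for complex I between genotypes under LPS. The causes were not tested.

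Leaving out 1 array at a time, the medians of IL-10 in WT cells ranged from −0.155 to −0.0354 (members), −0.158 to −0.0366 (I), −0.202 to 0.0218 (II), −0.151 to −0.0193 (III), −0.168 to −0.0443 (IV) and −0.155 to −0.0228 (V). Between genotypes under LPS they ranged from −0.109 to −0.0247 (members), −0.0972 to −0.00373 (I), −0.111 to −0.00692 (II), −0.141 to −0.0887 (III), −0.102 to −0.0356 (IV) and −0.250 to −0.0946 (V). With IL-10 in *miR-155*-/- cells they ranged from 0.0273 to 0.120 (members), 0.0169 to 0.0973 (I), 0.0776 to 0.125 (II), 0.0923 to 0.189 (III), 0.0293 to 0.101 (IV) and 0.0962 to 0.220 (V). Between genotypes with IL-10 they ranged from 0.0285 to 0.169 (members), 0.0283 to 0.189 (I), 0.0336 to 0.266 (II), −0.0229 to 0.0540 (III), 0.0450 to 0.164 (IV) and 0.0313 to 0.165 (V). For the difference they ranged from 0.110 to 0.250 (members), 0.0802 to 0.232 (I), 0.0802 to 0.425 (II), 0.0863 to 0.213 (III), 0.100 to 0.196 (IV) and 0.182 to 0.343 (V). Complex II in WT cells and complex III between genotypes with IL-10 changed sign in these ranges, and no member was called in any of these fits. Members with an unadjusted p under 0.05 ranged from 0 to 16, 0 to 8, 1 to 11, 0 to 13 and 0 to 14 in the 5 comparisons. An array left out leaves 1 in its group, which is then assumed to vary like the others.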
